A study of Capra hircus with 23 samples.

Results

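The 100 features described here stood higher than in untreated goat ear fibroblasts both after a single day of induction by small molecules and at the last day measured, day 8. They were selected on measured values. Each feature's level was taken as y = log2(CPM + 1), where CPM is the count scaled to the total of its library. The score of a feature was its lowest y among the day 1 and day 8 libraries minus its highest y among the day 0 libraries, and the 100 highest scores were taken from the 19255 features, of 28931 in the table, with 1 or more counts over the day 0 libraries. The levels at days 0, 1 and 8 chose the set, so they are given below as a description with no test. The levels at days 2, 3, 4 and 6 played no role in the choice.

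The induction medium, called BFRTV in the labels and the 5i system in the study's methods, turns fibroblasts towards mammary epithelial cells without added genes. As background, forskolin activates adenylyl cyclase and so raises cyclic AMP, TTNPB is an agonist of the retinoic acid receptors, and RepSox blocks the type I receptor of TGF-beta. VPA (valproic acid) inhibits histone deacetylases and tranylcypromine inhibits the histone demethylase LSD1, so both act on chromatin marks. Direct targets of such signals can respond within hours, whereas genes of a changed cell identity are commonly turned on over days.

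RNA depleted of ribosomal RNA was sequenced from ear fibroblasts of Capra hircus, isolated, per the study's methods, from Guanzhong dairy goats aged 2 to 3 months. All cells were grown on Matrigel. The day 0 group (libraries CK1, CK2 and CK3) received no induction medium, and the groups of days 1, 2, 3, 4, 6 and 8 (libraries 5i1d1 to 5i8d3) were kept in it for that number of days. There were 3 libraries for each of days 0, 4 and 8 and 2 for each of days 1, 2, 3 and 6. The sample titles carry the codes DF6 and DF7 across the days, and the columns of the table could not be tied to a code, so libraries of different days may come from one cell lot. The files list features under running IDs, none of which matched a gene of the RefSeq table at hand. Features are therefore given by ID with no gene name or role, and the labelled cell types could not be checked against markers.

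The libraries held 21540742 to 26165393 counts, so that a feature with 0 counts could have a level of up to 3 counts, or 0.115 to 0.139 CPM. Such limits and the intervals below cover counting error only. The day 0 library CK3 stood apart, with a rank correlation across features of 0.572 with CK1 and 0.581 with CK2, which correlated with each other at 0.998. CK3 lay under both others in 81 of the 100 features, beside 64.8% of the 19255 features. Because the score used the highest day 0 library, CK3 set it for 14 features, CK1 for 42 and CK2 for 44. Without CK3 in the rule, 73 of the 100 features were chosen again.

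At day 0 most of the set was expressed at a low level. The median over the 100 features was 1.82 CPM in CK1, 2.04 CPM in CK2 and 0.789 CPM in CK3, and 37, 37 and 55 features lay under 1 CPM. Features with 0 counts numbered 3 in CK1, 3 in CK2 and 12 in CK3. After day 0, no feature of the set had 0 counts or lay under 1 CPM in any library. The median was 16.7 and 14.7 CPM in the day 1 libraries and 29.1, 29.3 and 26.6 CPM in the day 8 libraries. On the log2(CPM + 1) scale the median of the set was 1.36 at day 0 and 4.08 at day 1. It was 4.74, 4.84, 4.95 and 5.02 on days 2, 3, 4 and 6 and 4.77 on day 8. The 19255 features had medians of 2.95 on day 0, 3.69 on day 1 and 3.68 on day 8. The set thus moved from below the middle of the other features to above it between day 0 and day 1, which the choice of the set requires. In bulk RNA, a higher level per cell and a larger share of cells with the transcript cannot be told apart.

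**Figure D1:**
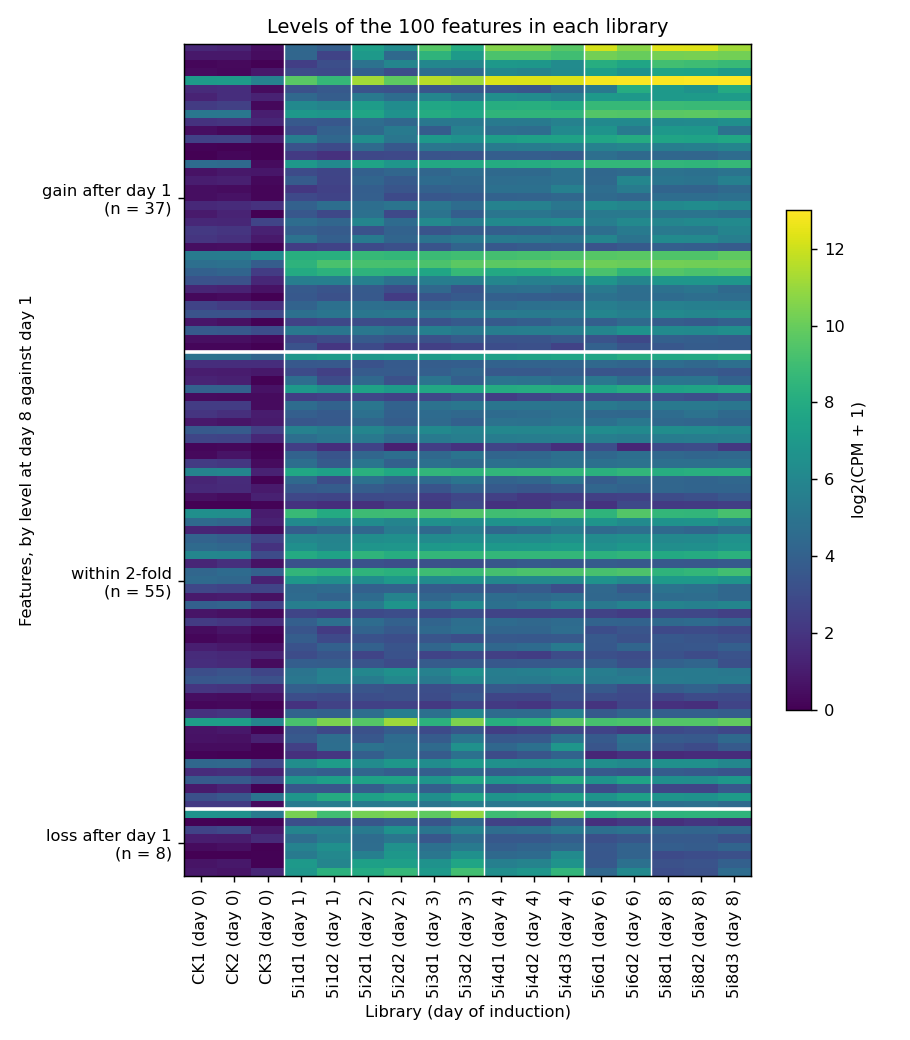
Level of each of the 100 features (rows) in each of the 17 libraries (columns, ordered by day), as log2(CPM + 1) on a colour scale, with rows grouped by whether the day 8 mean was more than 2-fold above, within 2-fold of or more than 2-fold below the day 1 mean on that scale. The 3 day 0 columns are dark, and the change to lighter colours falls between day 0 and day 1 in every group, while the lower block of 8 features darkens again by day 6.

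In 91 features, the day 0 libraries together held 11 or more counts, enough for a stable ratio. For these, the ratio of the pooled day 1 level to the pooled day 0 level had a median of 9.43 and ran from 3.41 in gene1426 to 278 in gene8138. The ratio of day 8 to day 0 had a median of 14.7 and ran from 3.98 in gene21474 to 3402 in gene24332. Of the other features, 4 had 4 to 10 counts and 5 had 1 to 3 counts over the 3 day 0 libraries. At day 8 the mean level was 10 CPM or more in 84 features, 100 CPM or more in 25 and 1000 CPM or more in 4.

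The set took a growing share of all counts. It was 0.110% in CK1, 0.110% in CK2 and 0.0430% in CK3, then 0.753% and 0.739% at day 1 and 1.11% and 1.09% at day 2. Day 3 had 1.23% and 1.44%, and day 4 had 1.54%, 1.60% and 1.74%. It reached 2.32% and 2.15% at day 6 and 2.53%, 2.53% and 2.33% at day 8. From day 2 on, every library lay above those of the day sampled before it. A few features carried much of this. The 5 most abundant ones over days 2, 3, 4 and 6 (gene19606, gene24332, gene11630, gene16043 and gene1555) took 37.7% to 38.1% of the set's counts at day 0 and 55.7% to 61.9% at day 8. The other 95 also rose in sum, from 267 to 687 CPM at day 0 to 9620 to 10320 CPM at day 8.

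**Figure D2:**
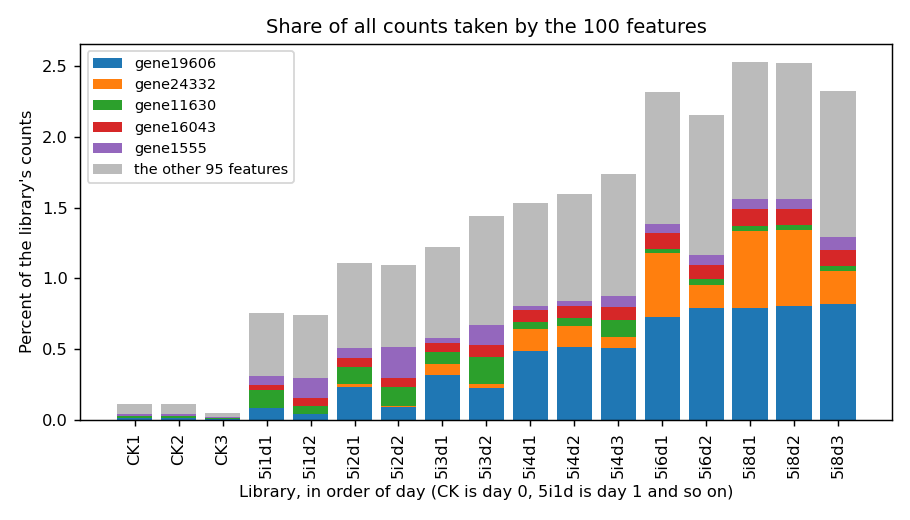
Percent of each library's counts taken by the 100 features (bar height, axis from 0), with the 5 most abundant features and the other 95 as stacked parts and the libraries in order of day. The bars stand at 0.110% or less at day 0, near 0.75% at day 1 and at 2.33% or more at day 8, and the parts of gene19606 and gene24332 widen with the days.

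The feature gene8827 had the highest score, 3.79 on the log2 scale. Its level was 18.4, 22.1 and 15.2 CPM at day 0 and 369 and 320 CPM at day 1. It was 352 and 307 CPM at day 2, 492 and 463 CPM at day 3, 582, 628 and 662 CPM at day 4, 598 and 670 CPM at day 6, and 355, 389 and 540 CPM at day 8. Day 1 had therefore brought it close to the day 8 level, and the highest levels were seen at days 4 and 6. Pooled, day 1 stood 18.3 times above day 0 (95% counting interval 17.3 to 19.4).

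The next scores belonged to gene15374, gene16043 and gene12862. In gene15374 the level was 14.8, 17.2 and 3.90 CPM at day 0, 249 and 324 CPM at day 1 and 745, 638 and 708 CPM at day 8. In between it held no steady course, with 343 and 332 CPM at day 2, 197 and 417 CPM at day 3, 232, 248 and 296 CPM at day 4 and 609 and 360 CPM at day 6. The day 3 libraries spanned those of days 2 and 4, and all day 4 libraries lay under both day 2 libraries. The feature gene16043 went from 26.3, 27.7 and 13.2 CPM at day 0 to 338 and 625 CPM at day 1, and its day 8 libraries agreed closely at 1192, 1153 and 1153 CPM. In gene12862 the day 0 level was 3.84, 4.57 and 0.232 CPM, and the levels then stepped up through 71.2 and 55.8 CPM at day 1 to 461, 442 and 452 CPM at day 8.

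Among the 10 highest scores were also features of moderate level. Of these, gene18988 and gene12788 had day 1 means within 1 of their day 8 means on the log2(CPM + 1) scale. The feature gene18988 stood at 0.918, 0.980 and 0.511 CPM at day 0, at 22.2 and 16.5 CPM at day 1 and at 22.8, 23.9 and 19.4 CPM at day 8, with 1 library, 5i2d2, far above the rest at 55.2 CPM. The feature gene12788, at 13694 nt the longest of the set, had 0.250, 0.613 and 0.0928 CPM at day 0, 16.2 and 9.47 CPM at day 1 and 20.3, 18.2 and 20.1 CPM at day 8. In gene15696 the day 0 level was 0.209 and 0.286 CPM in CK1 and CK2, with 0 counts in CK3, and the level went from 11.2 and 8.43 CPM at day 1 to 22.5, 24.9 and 24.0 CPM at day 8.

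Some of the set were barely seen at day 0. The feature gene8699 had 1 count over the 3 day 0 libraries, in CK3, and 40.5 and 65.2 CPM at day 1, a pooled ratio of 3735 (95% counting interval 670 to 147592). The feature gene4700 had 2 counts in CK1, 1 in CK2 and 0 in CK3, against 8.73 and 6.67 CPM at day 1, a pooled ratio of 179 (interval 60.7 to 870). The intervals are wide because so few counts stand in the denominator. The feature gene25208, with 3 counts over day 0, reached 7.73 and 8.51 CPM at day 1, and gene7993, also with 3 counts, reached 2.46 and 3.22 CPM.

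The threshold of the set fell in a dense stretch of scores. The last features inside were gene1922 (1.41), gene23020 (1.41) and gene1426 (1.40), and the first outside were gene13963, gene4831 and gene15439, all 3 at 1.39. The feature gene1426 stood at 11.7, 10.8 and 7.52 CPM at day 0 and at 36.5 and 32.4 CPM at day 1. The feature gene13963 outside had 0.835, 1.23 and 0.232 CPM at day 0 and 6.06 and 6.71 CPM at day 1. The other two outside, gene4831 and gene15439, rose to 16.3 and 9.51 CPM and to 48.6 and 66.7 CPM at day 1, which is the same kind of pattern as within the set. With log2(CPM + 0.1) in the score, 64 of the 100 features were chosen again.

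The days left out of the rule were then used to follow the course. In all 100 features every library of days 2, 3, 4 and 6 lay above every day 0 library. The same held for 16.6% of the 19255 features, and as the comparison shares the day 0 libraries with the rule, nothing is read from it. For each feature, the difference of a day's mean log2(CPM + 1) from day 0 was expressed as a percent of the difference between day 8 and day 0. The median over the set was 80.5% at day 1 (interquartile range 62.1% to 102%) and 87.8% at day 2 (70.9% to 113%). It was 93.9% at day 3 (76.9% to 115%), 98.0% at day 4 (84.1% to 108%) and 98.9% at day 6 (92.6% to 105%). At least 50% was present in 90 features at day 1 and in 98 at day 2. The libraries of a day differed by a few percent, with 83.4% in 5i1d1 and 76.7% in 5i1d2, and with 91.6% in 5i2d1 and 83.6% in 5i2d2. The values of days 0, 1 and 8 come from libraries that the rule used, so the share at day 1 describes the choice of the set and nothing is read from it.

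The set held different courses after day 1. In 55 features the means of day 8 and day 1 lay within 1 of each other on the log2(CPM + 1) scale. In 37 features day 8 stood 1 or more above day 1 (median difference 1.96, range 1.01 to 7.89), and in 8 features it stood 1 or more below (median -1.86, range -3.95 to -1.22). At day 1 the features that gained later had a median of 57.7% of their day 8 difference, those within 1 had 92.1% and those that lost later had 173%. The day with the highest mean was day 8 for 35 features, day 6 for 16, day 4 for 10, day 3 for 15, day 2 for 17 and day 1 for 7. Persistence at day 8, which the rule demands, therefore covered gain, little difference and loss from day 1 to day 8. These groups do not give the course in between. Within the middle group, gene24634 had means of 6.56 CPM at day 1, 23.9 CPM at day 3 and 6.35 CPM at day 8. Among those that gained, gene19863 had 34.1 CPM at day 4 and 18.4 CPM at day 8.

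**Figure D3:**
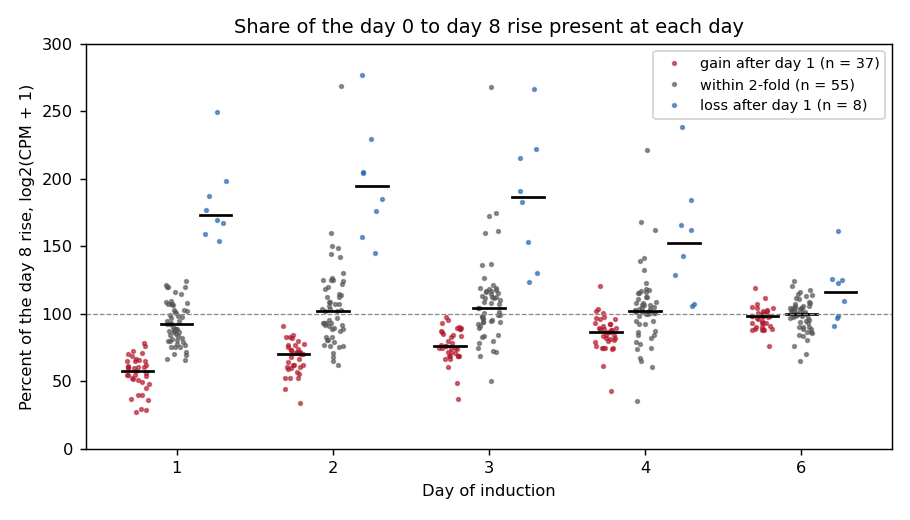
Percent of the day 0 to day 8 difference in mean log2(CPM + 1) that was present at days 1, 2, 3, 4 and 6, 1 point per feature, with a black bar for the median of each group (37 features that gained after day 1, 55 within 2-fold, 8 that lost) and a dashed line at 100%. The median of the gaining group climbs from 57.7% at day 1 to 98.2% at day 6, and that of the middle group stays near 100%. The median of the losing group comes down from 173% at day 1 to 116% at day 6.

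The comparison of day 6 with day 2 asks whether the set moved on within the interval that the rule did not see. Of the 100 features, 38 were higher and 9 lower at day 6 by edgeR's quasi-likelihood test at an adjusted p under 0.05, in a fit of the 9 libraries of days 2, 3, 4 and 6. Over all 16212 features tested, 13.6% were higher and 14.5% were lower. All 100 features of the set were among those tested, and their choice needed no filter on these days. The median log2 fold change was 0.49 in the set and -0.02 over all features tested, and 65 of the 100 were above 0. Both day 6 libraries lay above both day 2 libraries in 46 features of the set, beside 27.4% of all tested, and below in 25, beside 37% of all tested. The counts moved with single libraries. Fewer features were called without 5i6d1, 5i2d2 or 5i6d2, in the set and over all features tested. The median log2 fold change was then 0.42, 0.35 and 0.41 in the set and -0.04, -0.02 and -0.05 over all. A fit of the libraries of days 2 and 6 alone called 20 features of the set, beside 1130 of 15754 tested. With all 17 libraries, 16 were called, beside 951 of 16765 tested. None of the 47 changed sign under any alternative. The fit also drew its spread from day 4, where 5i4d1 and 5i4d2 were much alike. With 1 of these left out, 33 were called, beside 3080 of 16158 tested without 5i4d1 and 2961 of 16149 without 5i4d2. With day 4 left out, the libraries of days 2, 3 and 6 gave 24 calls, and 45 with the column number as a block. Of the 16034 features tested in these 2 fits, 1566 and 4576 were called.

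**Figure D4:**
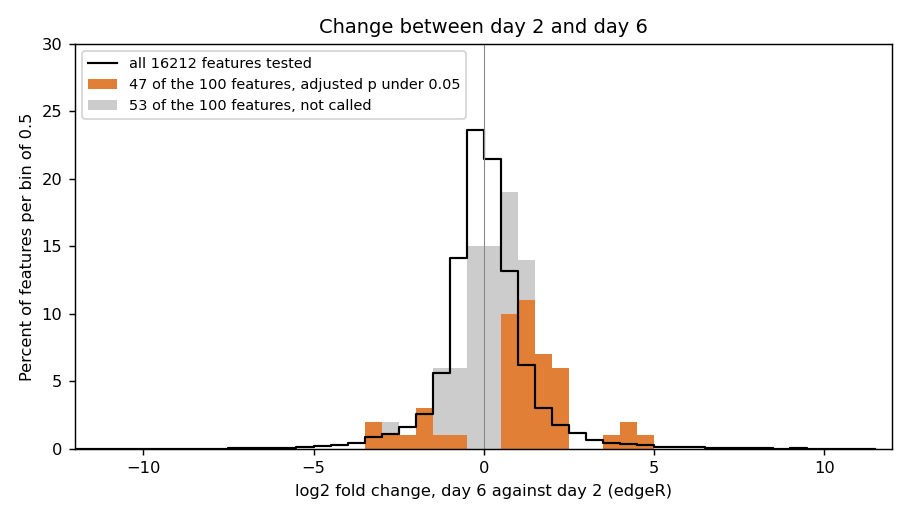
Distribution of log2 fold changes of day 6 against day 2 (edgeR, bins of 0.5) as percent of features, with a black line for all 16212 features tested and stacked bars for the 100 features, orange for the 47 with an adjusted p under 0.05 and grey for the 53 others. The bars lie to the right of the line (medians 0.49 and -0.02), with 9 orange features at negative values.

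The calls were also counted by the difference between day 8 and day 1. Of the 37 features that gained after day 1, 29 were higher at day 6 than at day 2 and 0 were lower. Of the 8 that lost, 6 were lower and 0 were higher, and of the 55 in between, 9 were higher, 3 were lower and 43 did not pass the test. Among all features tested, the same division gave the same directions, but smaller shares were higher among the gaining features and among those in between. Of 2604 that gained 1 or more from day 1 to day 8, 60.7% were higher at day 6 than at day 2, and of 2404 that lost as much, 67.0% were lower. Of the 11204 in between, 5.60% were higher and 6.63% were lower. The counts in the set are read against these shares and as a description, since days 1 and 8 chose the set and their libraries may share a cell lot with those of days 2 and 6.

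The largest rise called was that of gene24332. It stood at 1.75, 1.47 and 0.464 CPM at day 0, 19.5 and 13.2 CPM at day 1, 163 and 75.2 CPM at day 2 and 772 and 263 CPM at day 3. It then reached 1551, 1492 and 790 CPM at day 4, 4518 and 1650 CPM at day 6 and 5453, 5332 and 2287 CPM at day 8. Every library from day 2 to day 6 lay above all libraries of the day before it in the series. Day 6 exceeded day 2 by a log2 fold change of 4.80 (edgeR adjusted p = 0.00535, SE 0.74), and its pooled day 8 level was 3402 times that of day 0 (95% counting interval 2761 to 4242). At day 1 it had reached 27.5% of its day 8 difference on the log scale, the lowest share of the set.

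The features gene22619, gene19065 and gene24606 followed the same kind of course at lower CPM. In gene22619 the day 2 libraries stood far apart at 124 and 20.7 CPM, and the day 6 libraries were at 1194 and 1020 CPM (log2 fold change 4.08, edgeR adjusted p = 0.00932, SE 0.76). In gene19065 the level went from 15.1 and 7.66 CPM at day 2 through 63.9, 54.4 and 73.3 CPM at day 4 to 156 and 96.8 CPM at day 6 (log2 fold change 3.57, edgeR adjusted p = 0.00136, SE 0.34). In gene24606 it went from 28.5 and 58.8 CPM at day 2 to 273 and 199 CPM at day 6 (log2 fold change 2.48, edgeR adjusted p = 0.00621, SE 0.40), and day 8 was higher again at 537, 490 and 435 CPM. All 3 had been under 1 CPM in each day 0 library, and their groups of days 2 and 6 did not overlap. The call of gene22619 was lost without 5i6d1 (edgeR adjusted p = 0.0504).

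The feature gene2805 moved late. It lay between 8.26 and 11.5 CPM in the 6 libraries of days 1, 2 and 3 and at 10.6, 9.77 and 20.4 CPM at day 4, and then stood at 37.7 and 262 CPM at day 6 and at 124, 98.6 and 242 CPM at day 8. Its log2 fold change of day 6 against day 2 was 4.19 (edgeR adjusted p = 0.0112, SE 0.83). The day 6 libraries differed 2.77 on the log2(CPM + 1) scale, the widest gap within day 6 of the set, and without 5i6d2 the log2 fold change was 2.19.

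The most abundant feature of the set was gene19606. Its level was 137, 139 and 51.5 CPM at day 0, 806 and 403 CPM at day 1, 2320 and 861 CPM at day 2, 3164 and 2248 CPM at day 3, 4869, 5146 and 5069 CPM at day 4, 7266 and 7897 CPM at day 6 and 7897, 8071 and 8213 CPM at day 8. It rose by a log2 fold change of 2.37 from day 2 to day 6 (edgeR adjusted p = 0.00563, SE 0.37). The SD between its libraries was 1032 CPM about a mean of 1591 CPM at day 2 (n = 2), then 647, 143 and 446 CPM at days 3, 4 and 6. At day 8 the SD was 158 CPM about 8060 CPM (n = 3). On days 4 and 8 the first 2 libraries were much alike across features. Per length, the mean of gene19606 at day 8 was 2265 FPKM, against 1035 FPKM in gene22619, 758 FPKM in gene24332 and 495 FPKM in gene16043. FPKM divides the count by the feature's length and the library total, and so allows features to be set beside each other.

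In 13 features every library of days 3, 4 and 6 lay above every library of the day sampled before it, beside 1.66% of the 16212 features tested. Beside gene24332, gene22619, gene19065 and gene24606 these were gene12862, gene4700, gene14860, gene6003, gene21577, gene13046, gene25176, gene11956 and gene21408. The names outside the rule for named features were added after their values were seen. In gene12862 the level was 144 and 79.2 CPM at day 2, 209 and 187 CPM at day 3, 278, 278 and 247 CPM at day 4 and 422 and 412 CPM at day 6 (log2 fold change of day 6 against day 2 of 2.00, edgeR adjusted p = 0.00176, SE 0.22). In gene14860 it was 200 and 98.0 CPM at day 2, 253 and 204 CPM at day 3, 366, 369 and 364 CPM at day 4 and 737 and 720 CPM at day 6 (log2 fold change 2.39, edgeR adjusted p = 0.00175, SE 0.26). At day 0, gene14860 had stood at 34.1 and 34.8 CPM in CK1 and CK2 but at 1.161 CPM in CK3. In these features the day groups from day 2 to day 6 did not overlap at any step.

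**Figure D5:**
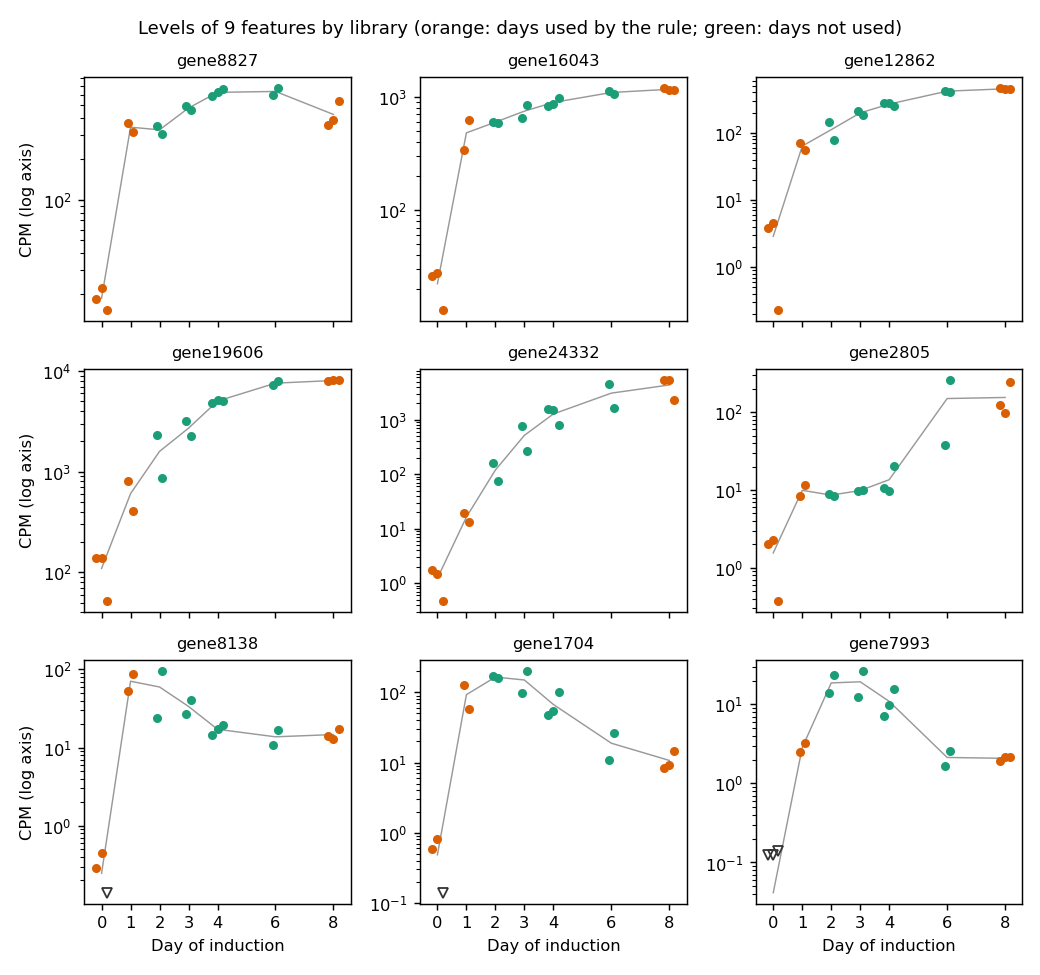
CPM on a log axis against day of induction for 9 features, 1 point per library and a line through the means, orange for the days used by the rule and green for the others; open triangles stand for libraries below 3 counts and are placed at the CPM of 3 counts, under which the mean line may pass. The upper rows rise through day 8 or level off (gene8827 between 355 and 540 CPM at day 8, gene19606 between 7897 and 8213 CPM at day 8), gene2805 rises after day 4, and the bottom row comes down from an early peak.

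The features that fell had peaked within the first 3 days. The feature gene1704 stood at 0.584, 0.817 and 0.0464 CPM at day 0, at 127 and 58.5 CPM at day 1, at 169 and 161 CPM at day 2 and at 99.3 and 201 CPM at day 3. It was then at 47.6, 54.6 and 99.7 CPM at day 4, at 11.02 and 26.7 CPM at day 6 and at 8.33, 9.19 and 14.6 CPM at day 8. Between day 2 and day 6 it fell by 3.06 on the log2 scale (edgeR adjusted p = 0.00860, SE 0.55), with no overlap of the libraries, and it was still far above day 0 at the end. Without 5i6d1 the adjusted p was 0.0589.

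The feature gene7993 was low at day 0 and at days 1, 6 and 8 and higher in between, with 14.0 and 23.4 CPM at day 2, 12.3 and 26.4 CPM at day 3, 1.68 and 2.58 CPM at day 6 and 1.94, 2.15 and 2.14 CPM at day 8. It fell by 3.08 on the log2 scale from day 2 to day 6 (edgeR adjusted p = 0.00894, SE 0.56). As its day 1 libraries were also near the day 8 level, at 2.46 and 3.22 CPM, it was counted among the features within 1 of day 1. The call was lost without 5i6d1 (edgeR adjusted p = 0.0747).

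The features gene8699, gene8138 and gene25208 also came down from early highs. In gene8699 the level was 47.7 and 118 CPM at day 2, 20.8, 22.3 and 72.3 CPM at day 4, 10.4 and 16.9 CPM at day 6 and 6.44, 7.52 and 8.06 CPM at day 8 (log2 fold change of day 6 against day 2 of -2.57, edgeR adjusted p = 0.0474, SE 0.81). In gene8138 it was 53.5 and 87.9 CPM at day 1 and 24.0 and 95.2 CPM at day 2, then 10.9 and 16.6 CPM at day 6 and 14.0, 13.01 and 17.1 CPM at day 8 (log2 fold change -2.10, edgeR adjusted p = 0.0374, SE 0.61). Much of the fall of gene8138 came from 5i2d2, without which the log2 fold change was -0.67 (edgeR adjusted p = 0.21). The same omission gave -1.67 in gene8699 (edgeR adjusted p = 0.202). The feature gene25208 had a log2 fold change of -1.92 (edgeR adjusted p = 0.0384, SE 0.56), from 10.2 and 13.8 CPM at day 2 to 2.54 and 3.51 CPM at day 6, and its call was lost in 6 alternatives (edgeR adjusted p of 0.0503 to 0.193).

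The abundant feature gene11630 peaked early as well. It stood at 99.2, 93.1 and 39.7 CPM at day 0, at 1276 and 517 CPM at day 1, at 1244 and 1401 CPM at day 2, at 866 and 1901 CPM at day 3 and at 496, 550 and 1158 CPM at day 4. Its level then settled at 300 and 380 CPM at day 6 and at 344, 353 and 347 CPM at day 8. The log2 fold change of day 6 against day 2 was -1.89 (edgeR adjusted p = 0.0278, SE 0.50), and the test was not passed without 5i2d2, 5i6d1 or 5i6d2 (edgeR adjusted p = 0.0822, 0.155 and 0.0837).

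Some other named features showed no change in this interval that passed the test. In gene1555 the libraries of a day stood far apart, at 764 and 2198 CPM at day 2 and at 329 and 1434 CPM at day 3, against 594 and 641 CPM at day 6 (log2 fold change -1.23, edgeR adjusted p = 0.262, SE 0.80). In gene15374 the log2 fold change was 0.60 (edgeR adjusted p = 0.25, SE 0.38). In gene18988 it was -1.04 (edgeR adjusted p = 0.0885, SE 0.41), with 22.7 and 55.2 CPM at day 2 and 19.0 and 17.8 CPM at day 6. The feature gene12788 had a log2 fold change of 0.08 (SE 0.32) and gene23020 of 0.03 (SE 0.17), with edgeR adjusted p of 0.849 and 0.889, and the sign of both turned when 5i2d1 or 5i6d2 was left out, that of gene23020 also with limma on FPKM. Others passed it. The features gene8827 and gene16043 rose by log2 fold changes of 1.02 (edgeR adjusted p = 0.00356, SE 0.14) and 0.95 (edgeR adjusted p = 0.0113, SE 0.19). In gene15696 the rise was 1.87 (edgeR adjusted p = 0.0140, SE 0.40), in gene4700 1.88 (0.00392, SE 0.26) and in gene1426 1.39 (0.00705, SE 0.24). The calls of gene15696 and gene1426 were lost in 4 and 1 of the alternatives. The call of gene16043 was lost without 5i6d1, without day 4, with days 2 and 6 alone and with all 17 libraries (edgeR adjusted p of 0.0548 to 0.188), and that of gene8827 in the last 2 of these (0.0666 and 0.166).

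Day 4 was set against day 2 and day 6 to place the change within the interval. Between day 2 and day 4, 7 features of the set were higher and 0 were lower by the edgeR test, beside 0.901% and 0.524% of all features tested. At an unadjusted p under 0.05, 32 were higher and 8 lower, beside 1704 and 1930 of all 16212 features tested. DESeq2 called 22 higher and 6 lower, beside 1555 calls in either direction among 21983 features. The 7 were gene19065 (log2 fold change 2.49, edgeR adjusted p = 0.0187, SE 0.31), gene4700 (1.43, edgeR adjusted p = 0.0369, SE 0.24), gene14860 (1.30, edgeR adjusted p = 0.0471, SE 0.24), gene12862, gene6003, gene21577 and gene8827. More features were called with 5i2d1 left out, in the set and over all features tested. The median log2 fold change was then 0.35 in the set and 0.02 over all, and 0.27 and -0.002 with 5i2d2 left out. With any day 4 library left out, 0 features of the set were called, beside 4 or fewer of all features tested. Fewer were also called without 5i2d2 or any 1 library of day 3 or day 6. Of the 7, gene8827 rose early in the interval, with a log2 fold change of 0.90 by day 4 (edgeR adjusted p = 0.0235, SE 0.13) and of 0.12 from day 4 to day 6 (edgeR adjusted p = 0.629, SE 0.12).

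Between day 4 and day 6, edgeR called 0 features of the set higher and 0 lower, beside 0.315% and 0.21% of all features tested. At an unadjusted p under 0.05 there were 25 higher and 4 lower, beside 1495 and 1621 of all 16212 features tested. DESeq2 called 12 higher and 3 lower, beside 1319 calls in either direction among 21983 features. With limma on log2(FPKM + 1), 0 of the set were called, beside 425 of 16212 features. The median log2 fold change of the set was 0.30 from day 2 to day 4 and 0.17 from day 4 to day 6, against -0.00 and 0.01 over all features tested. Of the 47 features called over the whole interval, most therefore passed the test in neither step. The steps share the day 4 libraries, and the difference between them was not tested.

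The spread within a day differed across the course. The range between the libraries of a day exceeded 1 on the log2(CPM + 1) scale in 38 features of the set on day 0, in 15 on day 1, in 23 on day 2, in 18 on day 3, in 11 on day 4, in 10 on day 6 and in 5 on day 8. Among the 13162 features whose mean was at least 50 counts, the shares were 76.9%, 29.6%, 16.5%, 5.54%, 3.26%, 2.60% and 1.38%. Wide ranges were thus less frequent in the set than among these features on days 0 and 1 and more frequent from day 2 on. On this scale, a feature under 1 CPM in every library of a day cannot have a range over 1. At day 0, 37, 37 and 55 features of the set lay under 1 CPM in CK1, CK2 and CK3. The rule favours such low levels, so nothing is read from the day 0 contrast. The rule used the libraries of days 0 and 1 but also those of day 8. The widest range of the set on day 0 was in gene17600 (88.8 and 86.1 CPM in CK1 and CK2 against 1.02 CPM in CK3). On day 2 it was in gene22619, on day 4 in gene16748 (19.4, 26.9 and 114 CPM) and on day 6 in gene2805. On days with 3 libraries, the first 2 were always much alike. The chi-square of their counts per degree of freedom was 2.67 on day 0, 3.62 on day 4 and 4.21 on day 8, against 32.2 or more in every other pair of a day, so the 3 libraries of these days may not be equally independent.

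Length and ID prefix were not used by the rule. The length, as the FPKM table implies it, had a median of 3554 nt (interquartile range 2165 to 5136 nt, range 660 to 13694 nt), against 2544 nt (1454 to 4196 nt) in the 19255 features. With log2(FPKM + 1), which takes out the length, in the score, 71 of the 100 were chosen again. The mean CPM over the 17 libraries lay at a median percentile of 61.4 among the 19255 features, and the day 0 mean had a median of 1.65 CPM against 9.21 CPM. Both values include libraries of the rule, which favours a low day 0 level. All 100 had IDs with the prefix gene.

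Some IDs of the set lay close together in number. With a gap of 5 or less as the limit, chosen after the values were seen, 14 features formed 6 runs. The longest was gene5947, gene5950, gene5951 and gene5953. Of these, gene5951 went from a mean of 16.5 CPM at day 0 to 183 CPM at day 1 and 115 CPM at day 8, and gene5953 from 10.3 CPM to 134 CPM and 96.8 CPM. The others were lower, with gene5947 at 0.362, 5.66 and 24.8 CPM and gene5950 at 0.139, 3.81 and 3.39 CPM on these days. The pair gene9283 and gene9284 rose side by side, from 1.71 and 2.17 CPM at day 0 to 16.7 and 20.1 CPM at day 1 and 132 and 70.5 CPM at day 8. Other IDs in or near the runs did not all follow. From day 0 to day 1 the mean of gene9281 went from 47.9 to 6.55 CPM, and that of gene25175 from 3.12 to 8.16 CPM. The files do not say what order the numbers follow, so no position on a chromosome is read from them. Near-identical copies, whose reads the authors' counting could split, could not be looked for without sequence.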

How the data were processed

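The deposited files hold raw whole-number counts for each feature and, separately, FPKM values. For 22657 of 22657 features the FPKM was the count over library total and 1 fixed length (relative tolerance 1e-06). FastQC 0.10.1, DESeq2 1.16.1 and HTSeq (no version) appear in the submitters' processing notes without their roles. Aligner, build and annotation are not given in the sources used here. Of 23 labelled samples, 17 had a column, assigned to its day by name. The 6 CiMECs and GMECs samples were not analysed here. The labels do not state whether samples of the same day are separate animals or cultures, so p-values measure only the spread between them, possibly a technical one. No pair of libraries agreed within sampling noise, and none were merged. Of the IDs, 0 matched the 28911 genes of the RefSeq table.

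Libraries held 21540742 to 26165393 counts. CPM used column totals. Days 2, 3, 4 and 6 were tested in edgeR 4.0.16 (R 4.3.3; TMM, filterByExpr, quasi-likelihood F test, Benjamini-Hochberg over all features tested, calls at an adjusted p under 0.05). SEs are log2 fold changes over the square root of F. Counting intervals are at 95%. Tested on simulated data for day 6 against day 2 (16212 features), the script recovered 10, 46, 49 and 50 of 50 features changed 2-, 4-, 8- and 16-fold, with 11 false calls among 166. The simulated libraries were drawn independently of each other, and the changed features had mean counts of 50 or more. Alike libraries and shared cell lots were not simulated, so these rates need not hold for the real libraries. Alternatives were DESeq2 1.42.0, RLE, no filter, a mean of 5 CPM, limma 3.58.1 on log2(FPKM + 1) and log2(FPKM + 0.1), other sets of days, a block on the column numbers and leaving out each library.

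The members and the rules were chosen with earlier results of these data known. Features named are the 10 highest scores, the 5 highest mean CPM over days 2, 3, 4 and 6, the 5 largest rises and falls called for day 6 against day 2, 3 for the other steps, and 3 scores on each side of the threshold. No gene or marker list was used, since the files pair no ID with a name.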

Additional observations from a re-analysis of the deposited data

Results flagged for a closer look

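The level of the set differed between time points that the rule had not used. By edgeR's test of day 6 against day 2 itself, 38 of the 100 features were higher and 9 were lower at day 6 (adjusted p under 0.05). Over all 16212 features tested, 13.6% were higher and 14.5% were lower. Days 1 and 8, which the rule used, lie on either side of these days. Of the 37 features that gained from day 1 to day 8, 29 were higher, beside 60.7% of all that gained. Of the 8 that lost, 6 were lower, beside 67.0% of all that lost. The counts are therefore not free of the rule. Days 2 and 6 had 2 libraries each. The number of calls moved widely when 1 library was left out, in the set and over all features tested alike.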

How the results depend on the processing

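Of the set, 57 to 98 features were chosen again when a library was left out of the rule, fewest without 5i1d2, and 64 with log2(CPM + 0.1). With the lowest library of a day in place of the mean, the median share of the day 8 difference was 79.8%, 87.0%, 94.0% and 93.5% on days 2, 3, 4 and 6. For day 6 against day 2, 47 calls became 20 with the libraries of those days alone, 16 with all 17 libraries, 24 without day 4 or a block (a fit chosen after seeing the data) and 22 to 59 without 1 library (22 without 5i6d1, 26 without 5i2d2, 27 without 5i6d2). For day 4 against day 2, 7 calls became 28 with DESeq2, 13 with no filter, 0 with those days alone, 0 with all 17 libraries and 0 to 41 without 1 library. For day 6 against day 4, 0 calls became 15 with DESeq2, 1 with no filter, 23 with those days alone and 0 to 14 without 1 library (14 without 5i2d1, 13 without 5i2d2, 1 without 5i6d1). Where 1 library of a day remained, its spread was taken to be that of the other days. The cause was not tested. Over all features, the share of day 6 against day 2 calls that were higher was 48.4%, 37.8% with limma on log2(FPKM + 1), 36.8% on log2(FPKM + 0.1) and 62.4% without 5i6d1.

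With the column number as a replicate block on days 2, 3 and 6, 45 features were called (34 higher, 11 lower). The same libraries without the block gave 24 (20 higher, 4 lower). Over all 16034 features tested, 4576 were called with the block and 1566 without. Of the 47 calls made with day 4, 39 were kept with the block and 8 lost. The differences between libraries 2 and 1 correlated across features at 0.776 for days 2 and 3, 0.15 for days 2 and 6 and 0.292 for days 3 and 6, over 13201 features. With only 2 numbers per day they were taken as bare numbers, not pairs. Among the named features, 463 of 560 alternative values kept direction and side of the threshold, 87 lost the call, 4 gained it and 6 turned in sign, all in features without a call. In gene12788 the log2 fold change of day 6 against day 2 of 0.08 ran from -0.21 to 0.41 without 1 library, negative without 5i2d1 and 5i6d2 (-0.12). In gene23020 it was 0.03, -0.042 and -0.044 with limma on log2(FPKM + 1) and log2(FPKM + 0.1), and -0.15 to 0.17 without 1 library, negative without 5i2d1 (-0.09) and 5i6d2. The biological coefficient of variation of the fit was 0.249, and 0.218 with the block and 0.293 without block or day 4, each from 2 or 3 libraries per day.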
